A study of Mus musculus with 6 samples.

Results

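Wnt pathway genes were followed through the open chromatin of mouse lung endothelial cells, in mice with and without cystathionine gamma-lyase. The members were taken by gene name alone: the Wnt ligands, the Frizzled receptors (Fzd), the co-receptors Lrp5 and Lrp6, the R-spondins (Rspo), the E3 ligases Znrf3 and Rnf43, the Dkk and Sfrp inhibitors, Apcdd1, Dvl1 to Dvl3, Axin1, Axin2, Apc, Ctnnb1, Lef1 and the Tcf7 family. A region joined the gene that the deposited table gives it or, where the table names none, the protein-coding gene with the nearest start site within 100 kb. This gave 190 of the 58172 regions, at 47 genes. All 190 passed the filter on low values (mean value of 5 or more). The rule itself uses no measured value, and an assignment by distance does not show which gene a region acts on.

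ATAC-seq, in which the transposase Tn5 cuts open DNA and leaves sequencing adapters there, gave 6 libraries of 50000 cells each. In the WT group, 3 libraries, the mice were Cre-negative. In the CSE-KO group, also 3 libraries, they were Cre-positive and lacked CSE, another name of cystathionine gamma-lyase, which Cth encodes and which makes cysteine and hydrogen sulfide. The labels used here name no strain, age, Cre driver or Cth allele, and do not say whether the samples came from separate animals, so p-values measure the spread between these samples, which may be technical. Cre and the loss of the enzyme cannot be told apart, because every CSE-KO library and no WT library carries Cre. In bulk libraries, fewer cells with an open region and less opening per cell also cannot be told apart.

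Wnt ligands are secreted lipid-modified proteins that bind a Frizzled receptor together with Lrp5 or Lrp6. The signal passes through Dishevelled (Dvl) and stops the destruction complex of Axin, Apc and kinases from marking beta-catenin (Ctnnb1) for breakdown, so that beta-catenin enters the nucleus and joins Lef1 and the Tcf factors on DNA. Dkk, Sfrp and Apcdd1 proteins hold the signal back outside the cell, Znrf3 and Rnf43 remove Frizzled from the membrane, and R-spondins block that removal. In endothelial cells the pathway is known for its part in vessel growth and in the barrier of brain and retinal vessels, and in the lung Wnt2 and Wnt7b are known for their roles in development.

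Sequences are shown for both called promoters that the RefSeq promoter table covers, Axin2 and Wnt9b, and for Dkk1, whose window held the most TCF/LEF letters among the member windows that overlap a region of their gene. Each is the 250 bases before the RefSeq start site (build GRCm38.p6), written in the direction of the gene. Axin2 lies at chr11:108920099-108920348 on the plus strand, Wnt9b at chr11:103749822-103750071 on the minus strand and Dkk1 at chr19:30549497-30549746 on the minus strand. Capitals mark the TCF/LEF core CTTTGA or its reverse complement TCAAAG.
Axin2: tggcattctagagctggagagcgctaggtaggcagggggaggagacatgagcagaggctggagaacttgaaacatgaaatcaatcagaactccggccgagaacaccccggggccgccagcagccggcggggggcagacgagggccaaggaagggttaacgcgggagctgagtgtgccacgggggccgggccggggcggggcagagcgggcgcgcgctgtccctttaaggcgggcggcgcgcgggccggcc
Wnt9b: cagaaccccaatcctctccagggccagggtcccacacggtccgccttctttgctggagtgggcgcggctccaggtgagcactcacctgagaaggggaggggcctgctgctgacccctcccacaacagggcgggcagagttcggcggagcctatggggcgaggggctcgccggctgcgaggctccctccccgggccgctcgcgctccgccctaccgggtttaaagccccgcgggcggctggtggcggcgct
Dkk1: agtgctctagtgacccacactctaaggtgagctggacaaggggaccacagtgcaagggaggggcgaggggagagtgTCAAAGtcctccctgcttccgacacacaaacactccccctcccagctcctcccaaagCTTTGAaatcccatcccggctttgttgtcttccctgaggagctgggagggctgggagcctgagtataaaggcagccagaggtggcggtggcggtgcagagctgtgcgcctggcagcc
The Dkk1 sequence held these letters 174 and 117 bases before the start. Its region overlapped 75 of the 300 bases of the window, around the start, so the letters lie outside it, and it did not pass the test between the genotypes. In Axin2 and Wnt9b, whose regions both had lower values in CSE-KO, neither orientation of the letters occurred in the window. The table held windows of 300 bases, which run on past the start, for 30 of the 47 genes (40 windows). The TCF/LEF letters stood in 5 of these 40 windows, against 16% of all 32544 windows. Among windows that overlapped a region, 3 of 26 member windows (at Dkk1, Fzd1 and Wnt11) and 10.8% of all 13255 windows held them. The letters lay wholly inside a region in 0 of these 26 windows, against 8.45% of the 13255. The AP-1 letters TGANTCA stood in 2 of the 40 windows (7.79% of all windows) and the ETS core CCGGAA in 5 (15% of all), with both strands searched and each set of letters counted on its own. The 26 member windows had a median of 34.5 CpG sites, against 22 in all windows that overlapped a region. These are counts of letters and show no binding.

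Of the 190 regions, 42 were promoter regions, with a centre within 1 kb of a start site by the authors' distance, and 148 were distal. The mean value of a member region in WT ran from 6.67 to 424, with a median of 48, and in CSE-KO from 2.67 to 420.7, with a median of 49.2. Values are the deposited ones, read counts that carry the marks of normalization and rounding and were treated as a score. The 190 regions together took 0.256% ± 0.0064 of all values in WT, against 0.256% ± 0.0036 in CSE-KO (SD, n = 3 each). Of the members, 84 lay inside the RefSeq span of their own gene, 17 inside another protein-coding gene only, and 89 inside no protein-coding gene. Another 39 regions in or within 1 kb of a Wnt pathway gene's span belonged to other genes or to none under the rule, of which 4 were called higher and 2 lower. Among these, the region over the start of Fzd4, the Frizzled receptor of norrin signalling, is listed under its neighbour Tmem135. It had values of 841, 627 and 692 in WT against 547, 705 and 618 in CSE-KO, and the groups overlapped. Besides Fzd4, 9 of the 57 genes that match the names had no region of their own: Dkk4, Rspo1, Rspo2, Rspo4, Sfrp5, Wnt3, Wnt3a, Wnt8b and Wnt10a.

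A region was called where the adjusted p of limma over all 58129 tested regions was under 0.05, and changes are CSE-KO minus WT on the log2(value + 1) scale. At 32 of 190 member regions (16.8%) the groups differed, 11 higher and 21 lower in CSE-KO. Over all tested regions 17.3% were called, 7.7% higher and 9.6% lower, so the share of called members lay near that of the genome. Of the calls, 17 were at least 2-fold, 14 lower and 3 higher. Calls of that size were not counted over all regions, so this split has no genome share beside it. All 32 called regions had groups that did not overlap. So did 44 of the other 158, which makes 76 of 190 members (40%) against 39.5% of all regions. The median log2 change was 0.12 over the members and -0.004 over all regions. When each library was centred on its promoter regions, the median of all regions moved to -0.127 and the members' calls became 5 higher and 27 lower (15.6% higher, against 34.4% of the calls on the values as deposited).

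**Figure D1:**
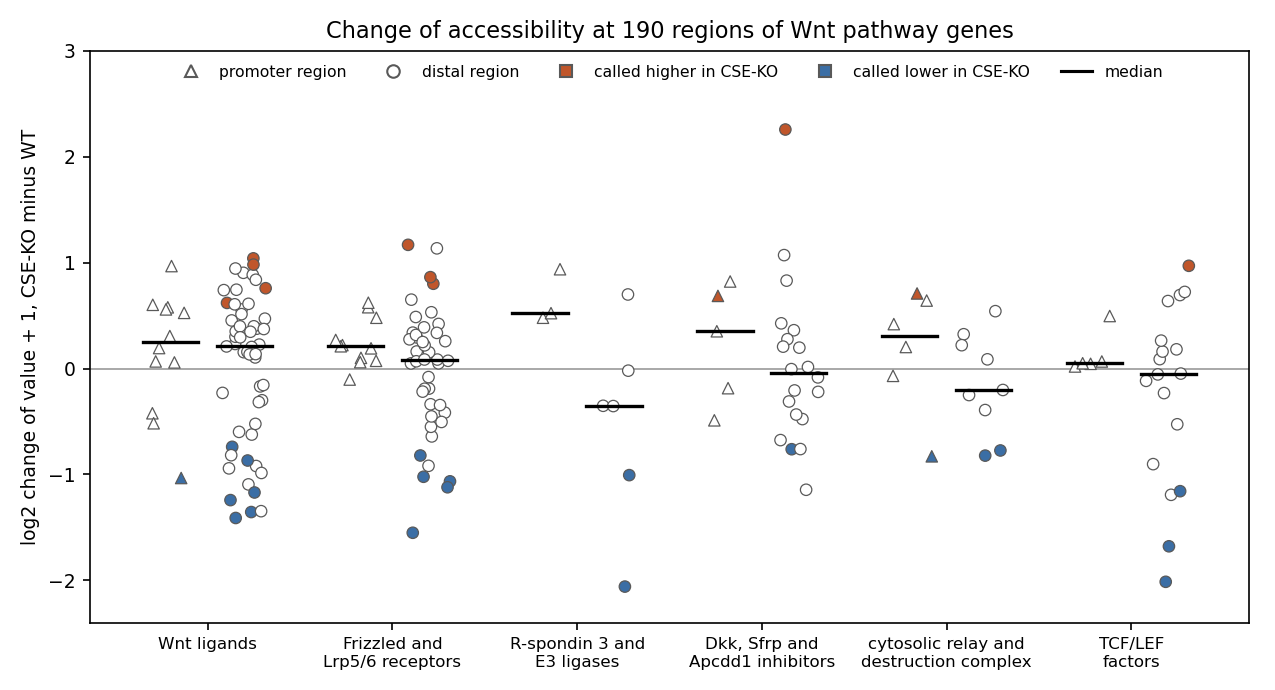
Log2 change of value + 1 (CSE-KO minus WT) at all 190 regions, by the role of the gene. Triangles are promoter regions and circles distal regions, filled where called higher (11 regions) or lower (21 regions), and black bars are medians. The changes run from -2.06 at a Znrf3 region to 2.26 at a Dkk2 region.

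The calls fell on 21 of the 47 genes: 11 had only lower regions, 5 only higher ones, and 5 (Apc, Dkk2, Fzd5, Lef1 and Wnt16) had both. The remaining 26 genes had none. The same split was not counted over all genes. Calls rested on single libraries to different degrees. Only 4 of the 32, both at Tcf7l1 and 1 each at Dkk2 and Lef1, passed the test without each library in turn. Leaving out 1 WT library ended 27, 28 and 24 calls (WT replicates 1, 2 and 3), and leaving out 1 CSE-KO library ended 12, 12 and 10. Adjusted p-values then lay between 0.0503 and 0.142. No region changed direction, but groups that do not overlap could not reverse when a library is left out. The same settings left 6.19%, 6.27% and 6.01% of all regions called without WT replicate 1, 2 or 3, and 15.3%, 14.5% and 14.8% without CSE-KO replicate 1, 2 or 3.

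**Figure D2:**
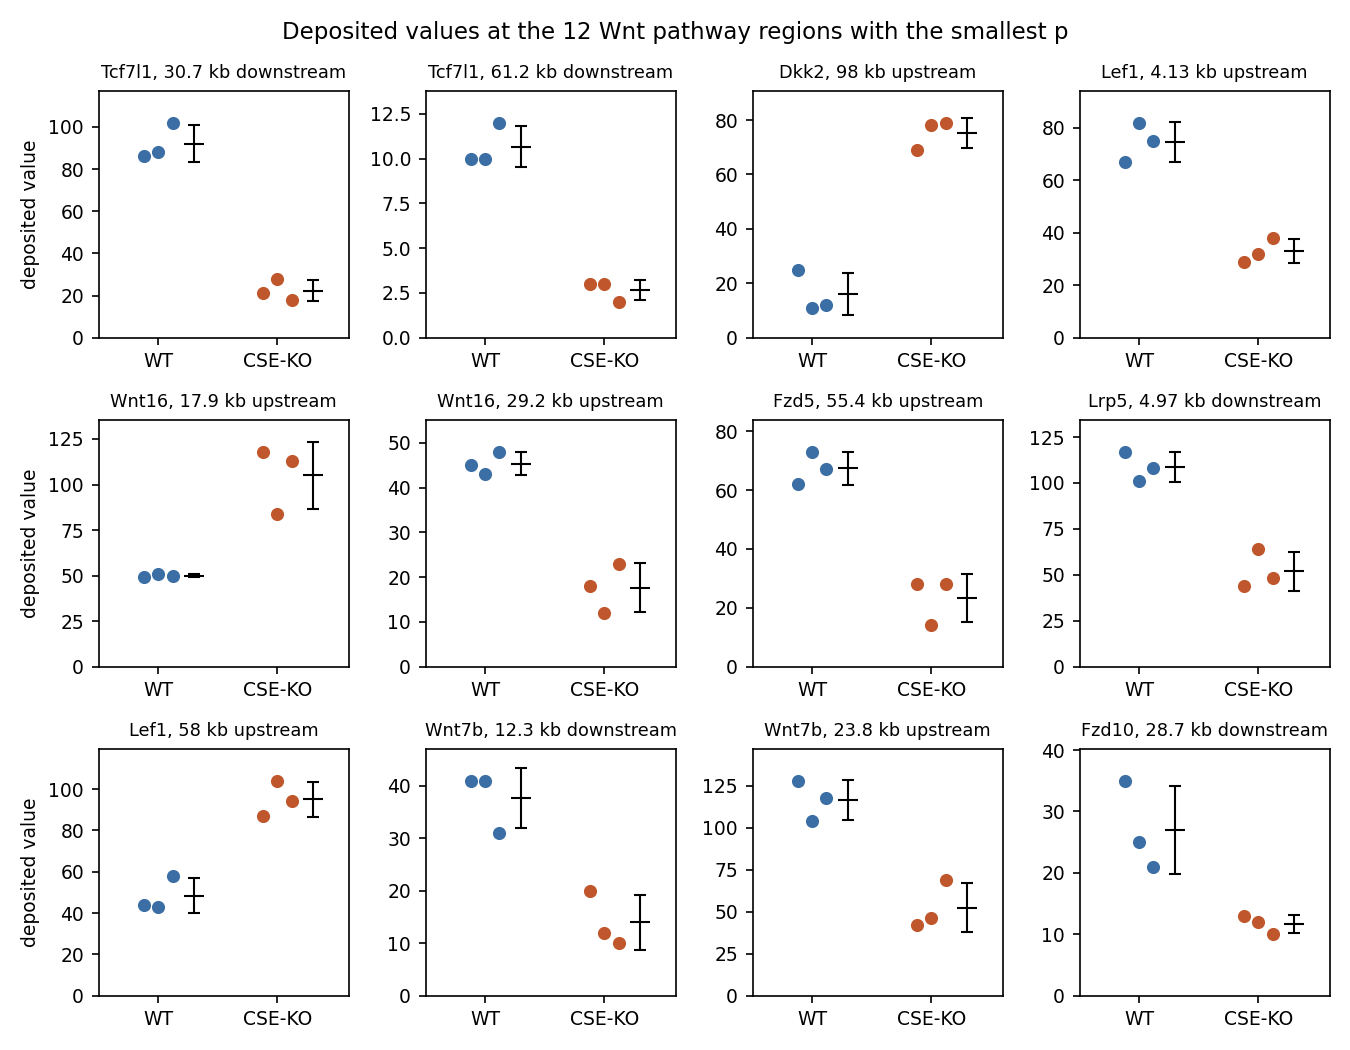
Deposited values in each library at the 12 member regions with the smallest p, with distances from the start site of the named gene. Points are libraries, and the bar beside each group is the mean ± SD (n = 3). WT and CSE-KO points do not overlap in any panel, and 9 of the 12 regions were lower in CSE-KO.

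Among the DNA-binding factors of the pathway, Tcf7l1 and Lef1 carried 3 of the 4 calls that held without every library. Tcf7l1, a factor that represses Wnt targets in the absence of signal, had a region inside the gene, 30.7 kb from its start (chromosome 6, 72758292 to 72758906, mm10), with values of 86, 88 and 102 in WT against 21, 28 and 18 in CSE-KO. The highest CSE-KO value was less than the lowest WT value by a wide margin. It fell 4.04-fold (log2 change -2.01 ± 0.21 SE, adjusted p = 0.00339), the smallest adjusted p among the members. A weak region further into the gene (72727945 to 72728138) had 10, 10 and 12 in WT against 3, 3 and 2 in CSE-KO, about 2, 2 and 1 reads by the spacing of the values, and also fell (adjusted p = 0.00422). That call was lost when the variance was fitted with a trend and robustly. The Tcf7l1 promoter, the strongest TCF/LEF promoter, had 458, 403 and 362 in WT against 392, 443 and 427 in CSE-KO, and the groups overlapped.

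Lef1, an activating partner of beta-catenin, had calls in both directions. Its region 4.13 kb upstream of the start (chromosome 3, 131105970 to 131106721) had 67, 82 and 75 in WT against 29, 32 and 38 in CSE-KO. The groups stood well apart, and the region fell 2.23-fold (log2 -1.16 ± 0.18, adjusted p = 0.0089). A second region 58.0 kb upstream had 44, 43 and 58 in WT against 87, 104 and 94 in CSE-KO, and rose (log2 0.97 ± 0.19, adjusted p = 0.0164). This call was lost without WT replicate 1 (adjusted p = 0.0686) or 2 (0.0695). The Lef1 promoter had 33 to 47 in WT against 30 to 61 in CSE-KO. Tcf7 and Tcf7l2, the other factors of the family, had no called region, and the smallest p among their 10 regions was at Tcf7l2 (log2 0.64, adjusted p = 0.129). The strongest distal region of the group, 25.2 kb upstream of Lef1, had 93 to 109 in WT against 108 to 144 in CSE-KO.

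Wnt ligands held the most regions, 65 at 15 genes, of which 4 were higher and 7 lower (16.9% called, against 17.3% of all regions). Wnt7b, a lung and brain ligand, had the strongest distal region of any member and the most calls of any gene, 3 of 8 regions, all lower. The region 28.2 kb upstream of its start had 295, 266 and 269 in WT against 155, 153 and 190 in CSE-KO. The region 23.8 kb upstream had 128, 104 and 118 in WT against 42, 46 and 69 in CSE-KO. Inside the gene, 12.3 kb from the start (chromosome 15, 85569989 to 85570332), the values were 41, 41 and 31 in WT against 20, 12 and 10 in CSE-KO. In all 3 every CSE-KO value was less than every WT value, and the log2 changes were -0.74 ± 0.17 (adjusted p = 0.0273), -1.17 ± 0.23 (0.0168) and -1.41 ± 0.27 (0.0167).

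The strongest distal region, 17.4 kb upstream of Wnt7b, had 456, 414 and 402 in WT against 258, 291 and 340 in CSE-KO. Its groups did not overlap, but it missed the threshold (log2 -0.52, adjusted p = 0.0813). The Wnt7b promoter had 55, 46 and 58 in WT against 100, 78 and 67 in CSE-KO, the opposite direction, and was not called (log2 0.60, adjusted p = 0.0864). Each Wnt7b call was lost without WT replicate 1 or 2 (adjusted p from 0.0519 to 0.1). The 2 upstream calls were also lost without WT replicate 3 (0.066 and 0.0877), and that at 28.2 kb without CSE-KO replicate 1 (0.0549) or 2 (0.0577).

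Wnt16, a ligand known from bone and blood stem cell formation, had neighbouring upstream regions that moved in opposite directions. The region 17.9 kb upstream had 49, 51 and 50 in WT against 118, 84 and 113 in CSE-KO (log2 1.04 ± 0.19, adjusted p = 0.0131). The region 29.2 kb upstream had 45, 43 and 48 in WT against 18, 12 and 23 in CSE-KO (log2 -1.35 ± 0.24, adjusted p = 0.0134). At both regions the WT libraries lay close together and apart from CSE-KO. Both calls were lost without any 1 of WT replicates 1, 2 and 3 (adjusted p from 0.051 to 0.058). The Wnt16 promoter had 56 to 67 in WT against 58 to 82 in CSE-KO.

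Wnt11, a ligand of the beta-catenin-independent branch, had 11 regions and 2 calls, both higher. A region 19.6 kb upstream had 211, 219 and 206 in WT against 340, 340 and 300 in CSE-KO, a rise of 1.54-fold (log2 0.62 ± 0.15, adjusted p = 0.0357). A region 78.0 kb downstream of the start, inside Uvrag, had 22, 29 and 28 in WT against 36, 63 and 64 in CSE-KO (log2 0.98 ± 0.26, adjusted p = 0.0442). Both calls were lost without WT replicate 1, 2 or 3, or without CSE-KO replicate 2 (adjusted p from 0.0683 to 0.142). The first was also lost without CSE-KO replicate 1 (0.0657) and the second without CSE-KO replicate 3 (0.0973), and both when libraries were centred on promoters, the second also with quantile normalization. The Wnt11 promoter had 14 to 20 in WT against 11 to 26 in CSE-KO.

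Wnt9b was the 1 ligand with a called promoter (chromosome 11, 103749477 to 103750035). It had 40, 33 and 35 in WT against 18, 21 and 13 in CSE-KO, with no overlap, and fell 2.05-fold (log2 -1.03 ± 0.21, adjusted p = 0.0203). Without any 1 WT library the call was lost (adjusted p of 0.0802, 0.0629 and 0.071 without replicates 1, 2 and 3).

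Wnt4, Wnt5a and Wnt5b had 1 call each, away from the promoter. At Wnt4, 20.5 kb into the gene, the values were 51, 72 and 69 in WT against 38, 31 and 34 in CSE-KO (log2 -0.87, adjusted p = 0.0265). A region 91.5 kb upstream of Wnt5b, inside Erc1, had 61, 72 and 72 in WT against 28, 40 and 20 in CSE-KO (log2 -1.24, adjusted p = 0.0216). A region 37.0 kb upstream of Wnt5a, inside Erc2, had 29, 40 and 37 in WT against 59, 57 and 64 in CSE-KO (log2 0.76, adjusted p = 0.0318). Wnt5a and Wnt5b are ligands mostly tied to the beta-catenin-independent branches, and the groups did not overlap at either region or at Wnt4. All 3 calls were lost without WT replicate 2 or 3 (adjusted p from 0.069 to 0.0991), those of Wnt5a and Wnt5b without WT replicate 1 (0.106 and 0.0631), those of Wnt4 and Wnt5a without CSE-KO replicate 2 (0.0596 and 0.0529) or 3 (0.0538 and 0.0667), and that of Wnt5a without CSE-KO replicate 1 (0.0559). The Wnt5a call was also lost when libraries were centred on promoters.

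The promoters of these ligands were weak. That of Wnt4 had 20, 7 and 7 in WT against 26, 11 and 30 in CSE-KO, that of Wnt5a 20 to 32 and 28 to 52, and that of Wnt5b 29 to 58 and 44 to 98, in each case with overlap. The ligand promoter with the highest WT mean was that of Wnt2b, with 124, 95 and 108 in WT against 72, 67 and 89 in CSE-KO. Wnt2, the ligand known from lung formation, had 46, 48 and 47 at its promoter in WT against 38, 37 and 30 in CSE-KO. At both promoters every CSE-KO value was less than every WT value, and neither passed the test (log2 -0.52 and -0.42, adjusted p = 0.105 and 0.123). A Wnt2 region 1.09 kb from the start went the other way, with 55, 58 and 59 in WT against 88, 77 and 75 in CSE-KO. It was not called either (log2 0.47, adjusted p = 0.0812). Wnt1, Wnt2, Wnt2b, Wnt6, Wnt7a, Wnt8a, Wnt9a and Wnt10b had no called region, and the smallest p among them was at Wnt8a (log2 0.74, adjusted p = 0.0652). The 54 uncalled ligand regions had changes from -1.35 to 0.97.

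Frizzled receptors and their co-receptors Lrp5 and Lrp6 had 53 regions at 11 genes, with 3 higher and 5 lower, all distal. That is 15.1% called, against 17.3% of all regions. Fzd5 is a receptor needed for vessel formation in the yolk sac and placenta. Its region 55.4 kb upstream, inside Plekhm3 (chromosome 1, 64792946 to 64793336), had 62, 73 and 67 in WT against 28, 14 and 28 in CSE-KO. It fell 2.93-fold with no overlap (log2 -1.55 ± 0.28, adjusted p = 0.014). Downstream of the start by 20.1 kb, inside Ccnyl1, another region had 59, 52 and 36 in WT against 106, 86 and 75 in CSE-KO, and rose (log2 0.86, adjusted p = 0.0487). The lower call was lost without WT replicate 1 (0.0507), 2 (0.0583) or 3 (0.0562), and the higher one without any 1 library (adjusted p from 0.0562 to 0.139), with a pseudocount of 0.5, or with libraries centred on promoters. The Fzd5 promoter, the strongest in this group, had 372, 367 and 448 in WT against 400, 426 and 407 in CSE-KO, with overlap.

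Lrp5, the co-receptor of norrin and Wnt signals in vessels, had the most regions of any member gene, 13, and 2 of them fell. At 4.97 kb into the gene (chromosome 19, 3681387 to 3681807) the values were 117, 101 and 108 in WT against 44, 64 and 48 in CSE-KO (log2 -1.06 ± 0.19, 2.09-fold lower, adjusted p = 0.014). At 20.9 kb into the gene they were 93, 79 and 77 in WT against 42, 54 and 44 in CSE-KO (log2 -0.82, adjusted p = 0.024). Both sites lie inside Lrp5, and at neither did the groups overlap. Without WT replicate 1, 2 or 3 both calls were lost (adjusted p from 0.0503 to 0.0915), and the second also without CSE-KO replicate 1 (0.0504) or 3 (0.0515). The Lrp5 promoter overlapped between groups, with 82 to 121 in WT against 111 to 141 in CSE-KO. Lrp6 had no call among 5 regions, and its smallest p was at a region 6.76 kb into the gene (42 to 60 in WT, 70 to 92 in CSE-KO, log2 0.65, adjusted p = 0.0689).

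Fzd2, Fzd6, Fzd7 and Fzd10 had 1 call each. Near Fzd10, 28.7 kb past the start, the values were 35, 25 and 21 in WT against 13, 12 and 10 in CSE-KO (log2 -1.12, adjusted p = 0.0192). At Fzd6, a receptor of planar polarity, a region 17.6 kb into the gene had 51, 47 and 51 in WT against 33, 18 and 23 in CSE-KO (log2 -1.02, adjusted p = 0.0284). The higher ones were near Fzd2, with 17, 21 and 13 in WT against 51, 38 and 30 in CSE-KO (39.6 kb, log2 1.17, adjusted p = 0.0253), and near Fzd7, with 36, 35 and 27 against 52, 58 and 62 (17.4 kb upstream, log2 0.80, adjusted p = 0.0277). In all 4 the groups did not overlap. Without WT replicate 1 or 2 all 4 calls were lost (adjusted p from 0.0514 to 0.0948), and without WT replicate 3 those of Fzd2 (0.089), Fzd6 (0.0947) and Fzd7 (0.0988). Without CSE-KO replicate 2 those of Fzd2 (0.0531), Fzd6 (0.0514) and Fzd7 (0.0561) were lost, and without CSE-KO replicate 3 those of Fzd6 (0.061) and Fzd7 (0.06).

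All 11 genes of the receptor group had a promoter region, and none of these was called. Their log2 changes ran from -0.10 at Fzd9 to 0.62 at Fzd10, and 10 of 11 were positive (90.9%, against 61.4% of all promoter regions). Fzd4 is not among the 11, and the region over its start, listed under Tmem135, had a negative change (log2 -0.20, adjusted p = 0.488). With libraries centred on promoters, 7 of 11 were positive (63.6%, against 48.5% of all). At Fzd10 the promoter had 86, 59 and 99 in WT against 139, 115 and 116 in CSE-KO, while its called distal region was lower. The promoter of Fzd7 had 292 to 340 in WT against 299 to 382 in CSE-KO, that of Fzd6 121 to 156 and 133 to 162, and that of Fzd2 13 to 23 and 23 to 36. The strongest distal region of the group, 1259 bases from the start of Fzd8, had 145 to 194 in WT against 172 to 195 in CSE-KO. Fzd1, Fzd3, Fzd8 and Fzd9 had no call.

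**Figure D3:**
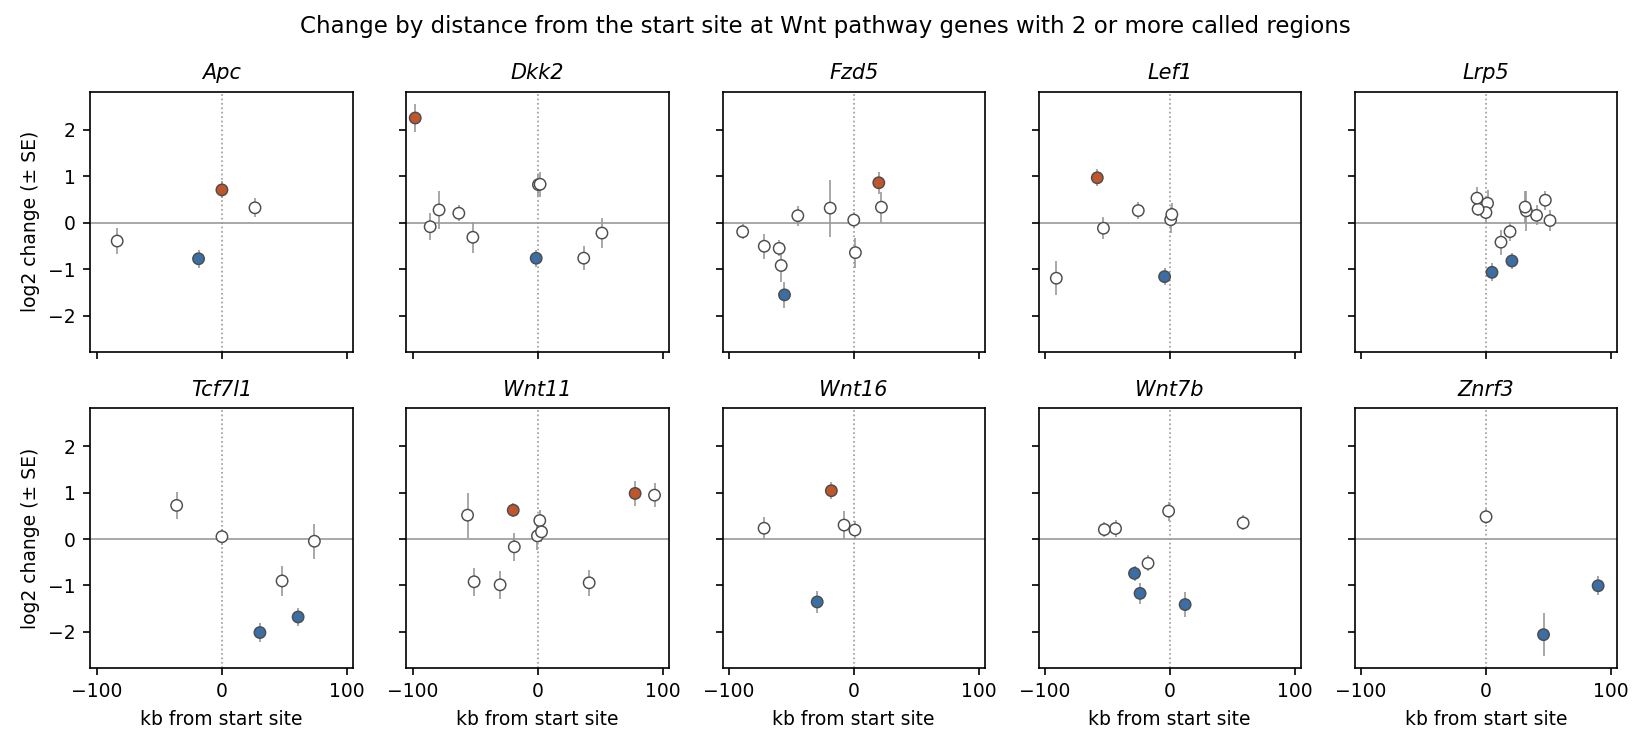
Log2 change (± SE) of each region against its distance in kb from the start site, for the 10 genes with 2 or more called regions. Orange points were called higher, blue points lower, and open points were not called. Among the regions that the rule gave each gene, Wnt7b, Lrp5, Tcf7l1 and Znrf3 have only lower calls, Wnt11 only higher ones, and the other 5 genes have both.

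Znrf3, the ligase that removes Frizzled from the membrane, had both of its calls inside its long gene body. At 89.9 kb from the start (chromosome 11, 5354636 to 5355249) the values were 136, 156 and 114 in WT against 75, 72 and 54 in CSE-KO, a fall of 2.01-fold (log2 -1.01 ± 0.21, adjusted p = 0.0201). At 46.2 kb they were 73, 81 and 80 in WT against 16, 9 and 39 in CSE-KO (log2 -2.06 ± 0.46, adjusted p = 0.0257). The CSE-KO libraries differed widely at the second region, and all lay under WT. The first call was lost without WT replicate 1 (0.0743) or 2 (0.0789). The second was lost without WT replicate 1 (0.0803), 2 (0.0846) or 3 (0.0846), or without CSE-KO replicate 1 (0.0602). A region in or within 1 kb of the Znrf3 span, which the rule gave to Kremen1, was called higher (log2 1.78, adjusted p = 0.00663).

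The Znrf3 promoter had 224, 221 and 209 in WT against 332, 265 and 320 in CSE-KO, higher in each CSE-KO library, and missed the threshold (log2 0.48, adjusted p = 0.0892). Rnf43, the sister ligase, had 1 region, its promoter, with 22, 34 and 32 in WT against 38, 86 and 54 in CSE-KO (log2 0.94, adjusted p = 0.0878). Rspo3, the ligand that spares Frizzled from these ligases and that endothelial cells make, had 5 regions and no call. Its promoter had 48, 40 and 48 in WT against 80, 52 and 67 in CSE-KO (log2 0.52, adjusted p = 0.125). A region 2.51 kb into the gene had 83, 119 and 132 in WT against 193, 158 and 185 in CSE-KO (log2 0.70, adjusted p = 0.0687). At all 4 of these regions every CSE-KO value exceeded every WT value without a call. The remaining Rspo3 regions had log2 changes of -0.02, -0.35 and -0.35, and their groups overlapped. With the Znrf3 calls, groups did not overlap at 6 of the 9 regions of these genes (66.7%, against 39.5% of all regions).

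The inhibitors that act outside the cell had 25 regions at 7 genes, with 2 higher and 1 lower (12%, against 17.3% of all regions). The largest rise of any member was near Dkk2, which binds Lrp5 and Lrp6. Its region 98.0 kb upstream of the start (chromosome 3, 131987146 to 131987474) had 25, 11 and 12 in WT against 69, 78 and 79 in CSE-KO. It rose 4.78-fold (log2 2.26 ± 0.31, adjusted p = 0.00641), with CSE-KO far above WT in every library, and was called without each library in turn. At 98.0 kb it lies near the limit of 100 kb for an assignment. A region 1.18 kb upstream of Dkk2 had 37, 40 and 33 in WT against 18, 25 and 21 in CSE-KO and fell (log2 -0.76, adjusted p = 0.0333). This call was lost without WT replicate 1, 2 or 3 (adjusted p from 0.0806 to 0.117), CSE-KO replicate 1 (0.0655) or 3 (0.0639), and when the variance was fitted with a trend and robustly. The Dkk2 promoter had 13, 18 and 24 in WT against 29, 35 and 33 in CSE-KO and did not pass the test (log2 0.82, adjusted p = 0.0559).

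Sfrp4, a secreted decoy for Wnt ligands, had 1 region, its promoter (chromosome 13, 19622793 to 19623078). The values were 29, 33 and 36 in WT against 52, 51 and 56 in CSE-KO, tight within each group and without overlap. It rose 1.61-fold (log2 0.69 ± 0.16, adjusted p = 0.0311). Without any 1 of the 6 libraries the call was lost (adjusted p from 0.0513 without CSE-KO replicate 2 to 0.113 without WT replicate 1), and also when libraries were centred on promoters. Sfrp1, with the strongest promoter of the group, had 119, 119 and 162 in WT against 75, 126 and 87 in CSE-KO, with overlap. Dkk1, Dkk3, Sfrp1, Sfrp2 and Apcdd1 had no call, and the smallest p among them was at Sfrp2 (log2 -0.68, adjusted p = 0.0852). The strongest distal region of the group, 63.1 kb upstream of Dkk2, had 86 to 90 in WT against 87 to 116 in CSE-KO.

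In the cytosolic relay and destruction complex, 1 region of 15 was higher and 3 were lower (26.7%, against 17.3% of all regions). Of these 4 calls, 2 were promoters that moved in opposite directions. Axin2 is a scaffold of the destruction complex and a widely used target gene of beta-catenin signalling. Its promoter (chromosome 11, 108920128 to 108921242) had 119, 133 and 176 in WT against 72, 70 and 97 in CSE-KO. Every CSE-KO value was less than every WT value, and the region fell 1.78-fold (log2 -0.83 ± 0.22, adjusted p = 0.0439). The call was lost without any WT library (adjusted p of 0.0796, 0.111 and 0.138 without replicates 1, 2 and 3), without CSE-KO replicate 1 (0.091) or 2 (0.0955), and with quantile normalization.

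Apc, the tumour suppressor that holds the destruction complex together, had a promoter (chromosome 18, 34220575 to 34221776) with 223, 206 and 242 in WT against 394, 406 and 305 in CSE-KO. It rose 1.63-fold without overlap (log2 0.71 ± 0.18, adjusted p = 0.0394). A region 18.5 kb upstream had 55, 69 and 60 in WT against 31, 43 and 33 in CSE-KO and fell (log2 -0.77, adjusted p = 0.0361). Both calls were lost without WT replicate 1, 2 or 3, or without CSE-KO replicate 1 (adjusted p from 0.0745 to 0.132). The promoter call was also lost without CSE-KO replicate 2 (0.0822) and with libraries centred on promoters, and the upstream call without CSE-KO replicate 3 (0.075).

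Ctnnb1, which encodes beta-catenin, had 4 regions and 1 call, 31.5 kb past its start in the table, with 32, 39 and 41 in WT against 18, 23 and 21 in CSE-KO (log2 -0.82, adjusted p = 0.025). Without CSE-KO replicate 1 (0.0516) or WT replicate 1 (0.0547), 2 (0.0926) or 3 (0.0963) this call was lost. A region that counts as distal by the authors' distance, 4.27 kb from the start, overlaps the Ctnnb1 promoter windows of RefSeq. It had 73, 81 and 70 in WT against 93, 113 and 123 in CSE-KO, higher in every CSE-KO library, and was not called (log2 0.54, adjusted p = 0.0767). Axin1, with the strongest promoter of the group, had 240, 226 and 247 in WT against 230, 265 and 336 in CSE-KO. The Dishevelled genes had no call, and the smallest p among the genes without one was at the Dvl1 promoter, with 190, 197 and 181 in WT against 225, 277 and 261 in CSE-KO (log2 0.42, adjusted p = 0.119). The strongest distal region of the group, 26.7 kb into Apc, had 90 to 127 in WT against 123 to 163 in CSE-KO.

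Of the 42 promoter regions, 2 were called higher (Apc and Sfrp4) and 2 lower (Axin2 and Wnt9b), 9.52% against 8.52% of all promoter regions (5.23% higher, 3.29% lower). The median log2 change was 0.22 over member promoters and 0.11 over all promoter regions. A positive change was seen at 34 of 42 (81%), against 61.4% of all promoter regions. With libraries centred on promoters, 25 of 42 (59.5%) were positive, against 48.5% of all, and neither Apc nor Sfrp4 was called. The largest positive change was at the Wnt4 promoter, where it did not pass the test (log2 0.97 ± 0.49, adjusted p = 0.212). The CSE-KO columns rest on about 3317000 to 3606000 reads by the spacing of their low values. The WT columns skipped 0 of the whole numbers up to 100, as values that were not scaled up would, and gave no such estimate. Depth may thus have been greater in WT, and depth and genotype could then not be told apart. A difference at a weak promoter can go undetected at the CSE-KO depth.

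**Figure D4:**
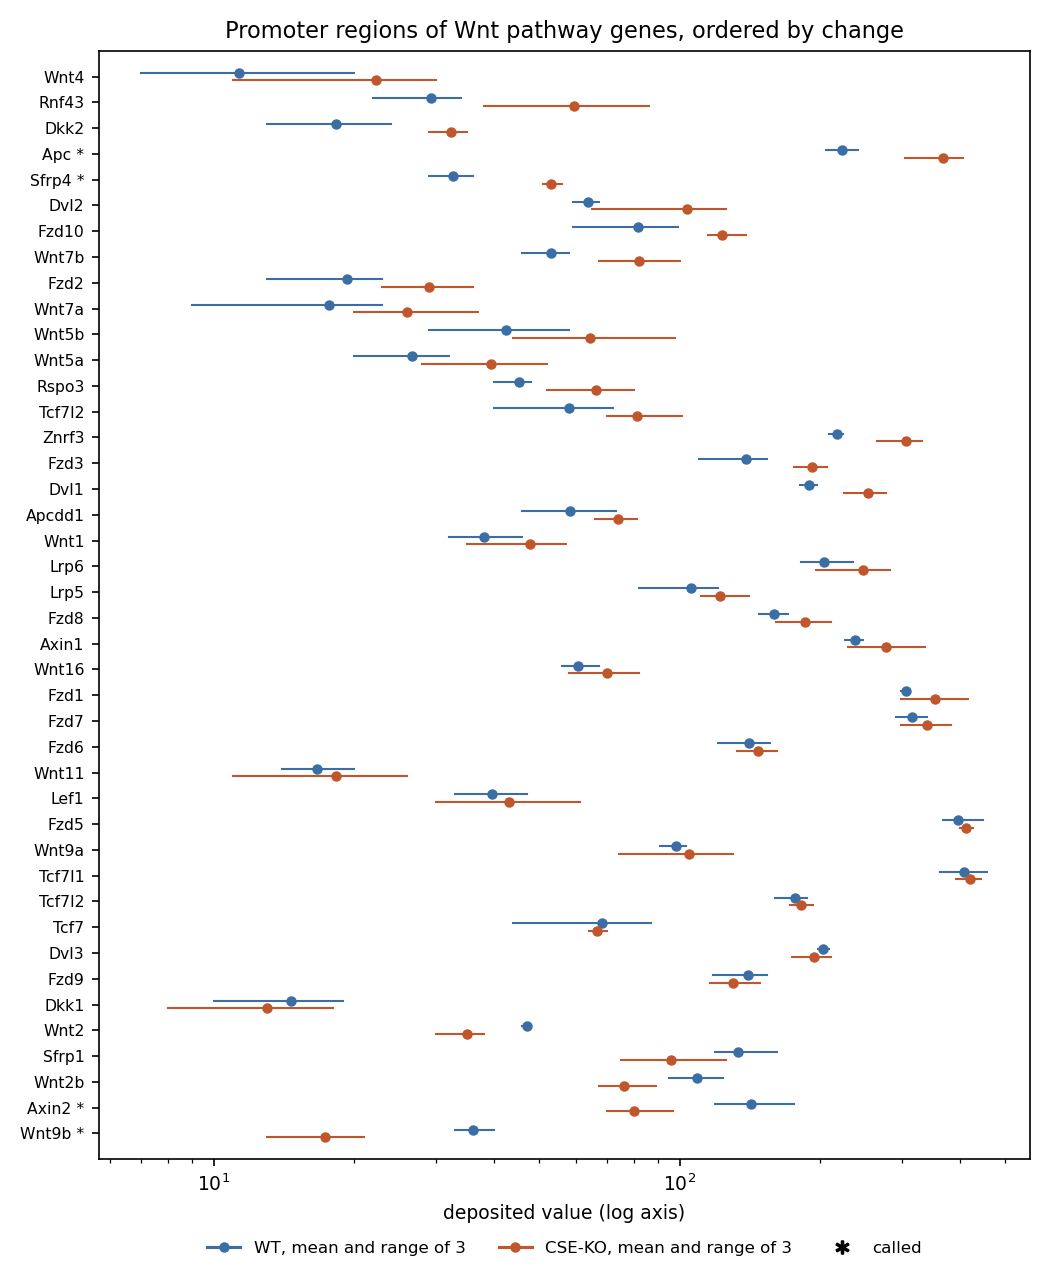
Deposited values (log axis) at the 42 promoter regions, ordered from the most positive log2 change at the top to the most negative at the bottom. Points are group means and lines the range of the 3 libraries, blue for WT and orange for CSE-KO, and asterisks mark the 4 called regions. The log2 change is positive at 34 promoters, and at Wnt9b and Axin2 at the bottom the CSE-KO ranges lie to the left of WT.

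Distal regions held the other 28 calls, 9 higher and 19 lower, which is 18.9% of 148 against 19.9% of all distal regions (8.43% higher, 11.5% lower). The median log2 change was 0.09, against -0.06 over all distal regions, and it became -0.04 with libraries centred on promoters. Inside the span of their own gene 53 distal members held 9 calls, all lower (at Tcf7l1, Lrp5 and Znrf3 2 each, and at Wnt4, Wnt7b and Fzd6). That is 17% of them, against 18.2% of all 11733 distal regions inside their assigned gene, of which 783 were higher and 1357 lower. Not counted are the regions that the rule gave to other genes or to none. Of these, 4 in or within 1 kb of a Wnt pathway gene's span were called higher, at Znrf3, Tcf7l1, Lrp5 and Rspo2. Another 2 were lower, at Tcf7l1 and Lrp6. Outside their gene, 95 distal members held 9 higher and 10 lower calls (20%), against 1360 higher and 1965 lower of 17266 distal regions outside their assigned gene (19.3%). By distance, calls were made at 3 of 37 members from 1 to 10 kb (8.11%, against 16.2% of all assigned regions at that distance), at 18 of 69 from 10 to 50 kb (26.1% against 19.3%) and at 7 of 42 from 50 to 100 kb (16.7% against 20.6%). In 18 of the 32 member genes with both kinds of region (56.2%) the promoter change exceeded the median distal change, against 61.3% of all 7507 such genes.

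Genes that work with the members were taken from 5 further lists, with 413 regions at 83 of 93 genes, of which 26 were higher and 60 lower (20.8%, against 17.3% of all regions, 7.7% higher and 9.6% lower). By list the share called was 11.9% (secretion and surface), 32.9% (beta-catenin turnover), 19% (nuclear partners), 19.6% (planar polarity and calcium) and 19.1% (targets). Among partners in secretion and at the cell surface, 2 of 67 regions were higher and 6 lower. Near Kremen1, the Dkk co-receptor, a region rose (8, 15 and 10 in WT, 34, 41 and 43 in CSE-KO, log2 1.78, adjusted p = 0.00663). It lies 43.2 kb from the start of Kremen1, and in or within 1 kb of the Znrf3 span. Falls were at Sost, the inhibitor sclerostin (99, 95 and 86 against 46, 35 and 43, log2 -1.16, adjusted p = 0.00835) and at the promoter of Frzb, a further Wnt decoy (103, 124 and 85 against 49, 31 and 41, log2 -1.35, adjusted p = 0.0119). A region near Tspan12, the tetraspanin of norrin signalling, rose (52, 36 and 40 against 72, 120 and 72, adjusted p = 0.0401). The groups did not overlap at any of the 4. The Frzb call was lost without WT replicate 1 (0.0505) or 2 (0.051), and that of Tspan12 without WT replicate 1 (0.0715), 2 (0.131) or 3 (0.123), or without CSE-KO replicate 2 (0.0649).

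Kinases, scaffolds and ubiquitin enzymes of beta-catenin turnover had 82 regions, of which 11 were higher and 16 lower. A region 59.1 kb from the start of Csnk1a1, the kinase that primes beta-catenin for breakdown, fell 5.21-fold (95, 101 and 125 in WT against 15, 25 and 20 in CSE-KO, adjusted p = 0.00303). Another, 54.5 kb from that start, had 100, 102 and 99 in WT against 33, 41 and 38 in CSE-KO (adjusted p = 0.00435). Regions near the Dishevelled inhibitors Cxxc5 (38, 29 and 34 against 113, 110 and 85, log2 1.58, adjusted p = 0.00495) and Nkd2 (18, 19 and 26 against 52, 54 and 46, log2 1.25, adjusted p = 0.00912) rose. All 4 calls held without each library in turn.

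Nuclear partners of beta-catenin had 6 higher and 10 lower of 84 regions. Groucho corepressors of the Tle family had distal calls in both directions. A region 52.8 kb from the start of Tle1 rose (21, 18 and 12 against 47, 92 and 57, log2 1.86, adjusted p = 0.0106). So did a region 35.1 kb from that of Tle3 (18, 13 and 17 against 33, 32 and 36, log2 1.04, adjusted p = 0.0123). A region 50.0 kb from the start of Tle4 fell (30, 31 and 32 against 11, 12 and 15, log2 -1.24, adjusted p = 0.00699). Near Sox17, an endothelial factor that binds beta-catenin, a region 74.4 kb away had 312, 282 and 295 in WT against 126, 78 and 126 in CSE-KO (log2 -1.45, adjusted p = 0.00907). Every CSE-KO value at Sox17 was less than every WT value. Of these calls, that of Tle3 was lost without WT replicate 2 (0.0506).

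In the planar polarity and calcium branch 2 of 112 regions were higher and 20 lower (19.6% called). Of all regions 17.3% were called, 7.7% higher and 9.6% lower, so the calls of this list leaned more to lower. Its median log2 change was -0.31 against -0.004 over all regions, and 26.8% of its changes were positive against 49.7%. Regions near Nfatc1, a calcium-driven factor of endothelial cells, and Prickle1, a core polarity protein, fell. The first, 95.5 kb from the start, had 240, 257 and 211 in WT against 74, 74 and 80 in CSE-KO (log2 -1.62, adjusted p = 0.00317). The second, at 87.4 kb, had 47, 53 and 62 against 8, 15 and 8 (log2 -2.33, adjusted p = 0.00435). A region 25.5 kb from the start of Camk2d, a calcium-driven kinase, rose (101, 101 and 87 against 163, 161 and 156, log2 0.73, adjusted p = 0.0228). So did another, 61.0 kb from that of Prickle1 (53, 21 and 24 against 60, 81 and 89, log2 1.31, adjusted p = 0.0471). The Camk2d call was lost without WT replicate 1 (0.0716), 2 (0.0733) or 3 (0.0922). The higher Prickle1 call was lost without WT replicate 2 (0.141) or 3 (0.146), or without CSE-KO replicate 1 (0.0578), 2 (0.0999) or 3 (0.105).

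Widely used target genes of the canonical pathway had 5 higher and 8 lower of 68 regions and a median log2 change of 0.005. A region 85.5 kb from the start of Ccnd1, the cyclin, fell (345, 335 and 372 in WT, 186, 152 and 185 in CSE-KO, log2 -1.01, adjusted p = 0.0104). Near Ccnd2, at 1.4 kb, one rose (56, 41 and 56 against 119, 97 and 105, log2 1.06, adjusted p = 0.0139). The Notch ligand Jag1 had both a fall, 88.2 kb away (107, 114 and 90 against 39, 37 and 52, log2 -1.27, adjusted p = 0.00913), and a rise at a weak region 72.3 kb away (13, 5 and 2 against 38, 29 and 39, log2 2.51, adjusted p = 0.0195). In each case the groups did not overlap. Without WT replicate 3 the Ccnd1 call was lost (0.0514), and without WT replicate 2 those of Ccnd2 (0.0536) and the Jag1 rise (0.0696).

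For the series as a whole, the promoter of Cth, the targeted gene, had 195, 157 and 167 in WT against 11, 6 and 2 in CSE-KO, and no library went against its label there. Values summed to 5242490 to 5368491 per WT library and 5437296 to 5547417 per CSE-KO library. Regions were assigned to 13 of 15 endothelial markers, though to neither Pecam1 nor Vwf. Of the 12 promoter regions of this list 3 were called higher and 2 lower (41.7%, against 8.52% of all promoter regions). Of its 63 distal regions 1 was called higher and 19 lower (31.7%, against 19.9% of all distal regions). Over all 75 regions of the list the median log2 change was -0.41, and 22 changes were positive and 53 negative. The promoter of Cdh5 had 160 to 166 in WT against 187 to 221 in CSE-KO and was not called (adjusted p = 0.172). Those of Tek (147, 188 and 153 against 276, 234 and 290, adjusted p = 0.038) and Kdr (151, 152 and 169 against 283, 251 and 240, adjusted p = 0.0268) were higher, and that of Tie1 was lower (170, 164 and 154 against 65, 84 and 54, adjusted p = 0.00942). The Tek call was lost without any 1 WT library or CSE-KO replicate 1 or 3, and the Kdr call without any 1 WT library or CSE-KO replicate 1. Summed over each marker list, values ran from 8350 to 8828 in WT against 6484 to 6961 in CSE-KO for the 13 endothelial genes, and from 1222 to 1284 and 1168 to 1244 for 8 of 14 mural and fibroblast genes. They ran from 2203 to 2355 and 1985 to 2110 for 7 of 13 epithelial and mesothelial genes (none at Nkx2-1 or Sftpc), and from 552 to 613 and 456 to 488 for 5 of 12 leukocyte genes (none at Ptprc). The endothelial, epithelial and leukocyte sums were each lower in CSE-KO without overlap, and the mural sums overlapped. Calls did not all follow the sums. Of 30 epithelial and mesothelial regions 4 were called higher and 2 lower (20%, against 17.3% of all regions). The Epcam promoter was higher (27, 27 and 22 against 36, 57 and 52, adjusted p = 0.0353). That call was lost without any 1 WT library or CSE-KO replicate 2 or 3. Calls were 1 higher and 3 lower of 26 mural regions (15.4%), and 0 and 1 of 8 leukocyte regions (12.5%). Within the endothelial list the distal sum was lower (6879 to 7429 in WT, 4957 to 5218 in CSE-KO) and the promoter sum higher (1399 to 1472 against 1527 to 1743). The mural list split in the same way. Its distal sum was lower (1024 to 1080 in WT, 914 to 965 in CSE-KO), and the sum of its 4 promoter regions higher (198 to 204 against 254 to 281). The epithelial promoter sums and the leukocyte distal sums overlapped between groups. The part of these sums in the changes at Wnt pathway genes was not tested.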

How the data were processed

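ATAC-seq regions of 3 WT and 3 CSE-KO libraries of mouse lung endothelial cells were used, grouped by the library titles. The build was mm10 and the tools DESeq2 1.26.0, Picard 3.1.1, STAR 2.7.3a and Trimmomatic 0.39, per the submitters' processing notes. How regions were called and whether read ends were shifted for Tn5 is not given in the sources used here. A score is the unit taken for the deposited values: they are whole numbers, but the CSE-KO columns skip 39, 35 and 39 of the whole numbers up to 100, as counts that the authors scaled and rounded would, so no count model was run. No 2 libraries agreed at more than 3.68% of regions, and all were kept as separate samples.

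Regions with a mean of at least 5 (58129 of 58172) were fitted with limma 3.58.1 (R 4.3.3) on log2(value + 1), eBayes with trend and robust off, with two-sided p-values adjusted by Benjamini-Hochberg over all of them. The pseudocount understates changes of weak regions. The script was tested on simulated data. Nearest start sites came from 12616 protein-coding genes of the deposited table, and gene spans and promoter windows from RefSeq (GRCm38.p6). A region that the table gives a gene ID without a symbol could join no gene.

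The members, the 5 further lists and the marker lists were chosen with earlier results of these data known. Named were each member gene's called regions with its promoter, the strongest promoter and distal region of each role, the smallest p among uncalled genes of each role, and up to 2 higher and 2 lower called regions of each further list. Alternatives were other pseudocounts, filters, variance fits, scalings, gene assignments, a replicate block and leaving out each library. Whether the replicate numbers of the titles pair the samples was checked by correlating deviations from the group means.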

Additional observations from a re-analysis of the deposited data

How the results depend on the processing

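No called member region changed direction under any alternative that was run. The called regions had groups that did not overlap, so only the other scalings could have turned their direction. The median change of distal members turned negative only with libraries centred on promoters. Centring gave 5 higher calls and medians of 0.0929 (promoters) and -0.0378 (distal). Fitting the variance with a trend and robustly gave 53 calls, 23 of them higher (26.6% of all regions called), and a filter at a mean of 20 gave 17 higher calls. With the deposited gene assignment alone there were 7 calls, 2 higher and 5 lower, and a distal median of 0.168, from fewer regions. Leaving out 1 library gave 5 to 29 calls, 1 to 11 higher and 3 to 20 lower, with medians from 0.185 to 0.288 (promoters) and from 0.0339 to 0.0787 (distal). The replicate numbers did not pair the samples: same-numbered deviations correlated at -0.0059, -0.0105 and 0.0105, and not every sample correlated best with its own number. A replicate block left 20 calls, 6 of them higher, all among the 32, and 10.3% of all regions. The 12 calls it ended were both at Apc and those of Axin2, Ctnnb1, Fzd7, Sfrp4, Wnt4 and Wnt5a, with the Lrp5 region 20.9 kb into the gene and the regions upstream of Dkk2 (1.18 kb), Wnt7b (28.2 kb) and Wnt11 (19.6 kb). Chosen after seeing the data, leaving out regions inside another gene gave 27 calls, 8 higher and 19 lower. Other settings stayed within 1.5 times the reported counts. Beyond the fewer regions or samples in some settings, the cause of these shifts was not tested.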
